A study of Homo sapiens with 6 samples.

Results

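The ERK feedback inhibitors are the dual-specificity phosphatases DUSP1, DUSP4, DUSP5 and DUSP6, the Sprouty genes SPRY1, SPRY2 and SPRY4, and the SPRED genes SPRED1, SPRED2 and SPRED3. They were chosen by gene symbol from a list that was proposed with their values in these same samples known, so these values are given as a description, with no p-value, and any count of members past a threshold is part of that description and supports nothing. The 10 members are 10 of the 58735 rows of the deposited counts, and 10 of 10 passed the filter on low counts. RD is an established human cell line of embryonal rhabdomyosarcoma, a childhood tumor with features of skeletal muscle. RNA-seq was performed on 3 control samples, transduced with lentiviral particles carrying a scrambled shRNA, and on 3 TAK1 knockdown samples, transduced with particles carrying a TAK1 shRNA. Total counts were 29125436, 31886885 and 31334733 in control replicates 1, 2 and 3, and 28839898, 34469323 and 32710522 in TAK1 knockdown replicates 1, 2 and 3. The labels do not say that replicates are separate cultures, so p-values measure the spread between these samples, which may be technical. One TAK1 shRNA was sequenced, and loss of TAK1 and other effects of that construct cannot be told apart.

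Growth factor receptors activate RAS, which drives a relay of RAF, MEK and ERK kinases, and active ERK enters the nucleus and induces, through ETS and other transcription factors, genes that include its own inhibitors. Dual-specificity MAP kinase phosphatases remove phosphate from ERK itself, whereas Sprouty and SPRED proteins act upstream, at the steps from receptor to RAS and RAF, and SPRED proteins bring the RAS inhibitor neurofibromin to the membrane. Transcripts of these inhibitors are widely used as a readout of ERK output, and RD cells are known to carry an activated NRAS allele. ERK activity was not measured in these samples, and whether it differed between the groups was not tested. On blots of TAK1 knockdown RD cells the study reports significantly lower phosphorylation of JNK and p38. It reports this for ERK in a different rhabdomyosarcoma line.

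The sequences upstream of 3 members are shown as examples, picked after their values were seen: DUSP6, with the largest difference between groups, SPRY2, with an intermediate one, and DUSP1, with the smallest. The RefSeq promoter windows (GRCh38.p14) matched 8 of the 10 members with 13 windows, and DUSP4 and DUSP5 had no entry. Each sequence is the 250 bases before an annotated start site, read on the strand of the gene, which is the minus strand for all 3. The window of DUSP6 lies at chr12:89352502-89352751, that of SPRY2, before the most upstream of its 3 annotated start sites, at chr13:80341127-80341376 and that of DUSP1 at chr5:172771196-172771445. Capitals mark GGAA, the core shared by ETS factor motifs, on either strand (TTCC on the strand shown) in DUSP6 and SPRY2, and TGACGTCA, the cAMP response element, in DUSP1.
DUSP6: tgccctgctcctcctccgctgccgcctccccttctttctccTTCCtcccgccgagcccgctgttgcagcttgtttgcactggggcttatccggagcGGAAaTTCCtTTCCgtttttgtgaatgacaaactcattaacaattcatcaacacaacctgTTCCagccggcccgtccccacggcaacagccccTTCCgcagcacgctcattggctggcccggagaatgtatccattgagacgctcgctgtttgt
SPRY2: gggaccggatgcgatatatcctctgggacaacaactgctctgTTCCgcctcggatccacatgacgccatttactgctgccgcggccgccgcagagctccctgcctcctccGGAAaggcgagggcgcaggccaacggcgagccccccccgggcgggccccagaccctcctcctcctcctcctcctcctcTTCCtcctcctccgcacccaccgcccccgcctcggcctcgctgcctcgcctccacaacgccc
DUSP1: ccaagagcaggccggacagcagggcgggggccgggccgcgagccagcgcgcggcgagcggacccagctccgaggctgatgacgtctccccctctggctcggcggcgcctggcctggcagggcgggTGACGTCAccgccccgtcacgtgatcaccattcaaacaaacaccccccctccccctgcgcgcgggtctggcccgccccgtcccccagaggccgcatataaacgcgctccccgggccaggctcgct
The DUSP6 window held 6 matches to GGAA, and 9.14% of all 35116 windows held at least as many. The median over all windows was 3 matches. The SPRY2 window shown held 3 matches, and its other 2 windows held 4 each. In the window shown, 1 match was part of the longer ETS motif CCGGAA, 142 bases before the start site. The DUSP1 window held 0, as did 7.26% of all windows. Among the other members, the SPRY4 window held 2, the SPRY1 windows 5 and 4, the SPRED2 windows 5 and 4, the SPRED3 windows 4 and 5, and the SPRED1 window 3. That of DUSP1 was the 1 member window without GGAA, and the 1 with TGACGTCA, which lies 125 bases before the start site and occurs in 1.65% of all windows.

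Motifs were searched on both strands in all 13 member windows. GGAA, which is contained in CCGGAA and CAGGAA, was in 12 of the 13 and in 92.7% of all windows. CCGGAA was in windows of SPRY1 and SPRY2 (14.5% of all windows), and CAGGAA in windows of SPRY1, SPRY2, SPRED1 and SPRED2 (24.1%). TGACG, which is contained in TGACGTCA, was in windows of DUSP1, SPRY2 and SPRY4 (21.2%). A window of SPRED3 held the AP-1 motif TGANTCA (6.57%) and the octamer TGAATGAA of the ERK-regulated repressor CIC (1.40%), and another held the kB site of NF-kB (9.96%). The CArG box of SRF (1.16%) and the CIC octamer TGAATGGA (0.832%) were in 0 member windows. Some of these windows lie in annotated exons of protein-coding genes (GENCODE 44). This holds for all 250 bases of the SPRED3 window with the kB site and of the SPRY1 window with CCGGAA, for 126 bases of the other SPRED3 window, 170 of the SPRY4 window and 38 of a SPRED2 window. The windows printed hold 0 exon bases of protein-coding genes. A match says only that these letters are present in the window.

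The targeted gene was examined first. MAP3K7 (ENSG00000135341.19), which encodes TAK1, reached 77.9, 76.5 and 77.6 CPM in the control samples and 30.5, 33.6 and 29.9 CPM in the TAK1 knockdown samples, where CPM are read counts scaled by each normalized library size. The groups did not overlap, and the log2 fold change was -1.30 (standard error, SE, 0.062; adjusted p = 4.45e-14, edgeR's quasi-likelihood test, Benjamini-Hochberg adjusted). The cell type label was checked with markers. Of 9 muscle lineage markers, 7 passed the filter, MYF5 was at 0 in every sample and MYF6 was below the filter. Their summed level was 2111, 2139 and 2147 CPM in control samples and 2165, 2109 and 2058 CPM in TAK1 knockdown samples, and the acetylcholine receptor gene CHRNA1 was the most abundant, at a mean of 811 CPM. The sum hides differences in both directions, named after their values were seen. MYOD1 (262.6 ± 8.03 and 339 ± 16.7 CPM; log2 fold change 0.37) and MYOG (141 ± 6.07 and 169.6 ± 7.85 CPM; 0.27), the myogenic transcription factors, were higher in TAK1 knockdown samples, and CHRNA1 was lower (921 ± 11.5 and 700.3 ± 2.33 CPM; -0.40), each past the thresholds used for all genes, an adjusted p below 0.05 and a log2 fold change of 0.25 or more in size. MYOG fell short of the fold threshold without control replicate 1 (0.236) or TAK1 knockdown replicate 1 (0.244). The groups of DES, CDH15 and MYH3 were also apart, all higher, without passing these thresholds. The part of these differences in the members' values was not tested. Markers of epithelium, endothelium and blood leukocytes summed to at most 0.603, 0.162 and 0.413 CPM in any sample.

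Among the MAP kinase phosphatases, DUSP6, the cytoplasmic phosphatase specific for ERK, showed the largest difference. The gene occupies chr12:89347235-89352501, minus strand, in GRCh38 (GENCODE 44). DUSP6 reached 552, 551 and 539 CPM in control samples and 263, 262 and 259 CPM in TAK1 knockdown samples. The groups were far apart and each was tight, with means of 547 ± 7.21 and 261 ± 2.32 CPM (SD, n = 3). DUSP6 in TAK1 knockdown samples was at 0.477 of its control level, a log2 fold change of -1.07 (SE 0.042), and it ranked 146th from the lowest among the 15935 genes tested. An annotated long noncoding RNA on the opposite strand overlaps its exons, and reads of the pair cannot be told apart without strand. In bulk samples, fewer cells of a type and less RNA per cell cannot be told apart, which holds for every level given here.

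DUSP5, the nuclear phosphatase specific for ERK, reached 17.5, 16.9 and 17.0 CPM in control samples and 10.8, 10.8 and 11.1 CPM in TAK1 knockdown samples. Every TAK1 knockdown value was below every control value, and the log2 fold change was -0.65 (SE 0.090). DUSP4, a nuclear phosphatase that acts on ERK and JNK, reached 60.9, 54.2 and 53.9 CPM in control samples and 55.0, 46.3 and 55.1 CPM in TAK1 knockdown samples. The groups overlapped, since TAK1 knockdown replicates 1 and 3 lay among the control values, and the log2 fold change was -0.11 (SE 0.070). DUSP1, a nuclear phosphatase that prefers p38 and JNK over ERK and is induced by stress, reached 25.5, 28.9 and 27.7 CPM in control samples and 29.3, 28.9 and 27.1 CPM in TAK1 knockdown samples. These groups overlapped as well, with a log2 fold change of 0.05 (SE 0.073).

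Sprouty proteins bind adaptors such as GRB2 and curb signaling from growth factor receptors. SPRY4 reached 297, 291 and 275 CPM in control samples and 156, 145 and 146 CPM in TAK1 knockdown samples. Each TAK1 knockdown sample was far below each control sample, and the mean was at 0.518 of the control level, with a log2 fold change of -0.95 (SE 0.048). SPRY2 reached 285, 284 and 274 CPM in control samples and 184, 191 and 185 CPM in TAK1 knockdown samples. There was no overlap between groups, and its log2 fold change was -0.59 (SE 0.044). SPRY1 reached 152, 149 and 147 CPM in control samples and 129, 119 and 114 CPM in TAK1 knockdown samples. These groups did not overlap either, but the difference was smaller, with a log2 fold change of -0.30 (SE 0.051).

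SPRED proteins carry a Sprouty domain and an EVH1 domain, which binds neurofibromin. SPRED2 reached 229, 213 and 212 CPM in control samples and 136, 133 and 135 CPM in TAK1 knockdown samples. Again the groups were apart, and the log2 fold change was -0.70 (SE 0.047). SPRED3 reached 27.2, 27.6 and 27.8 CPM in control samples and 20.8, 19.9 and 21.6 CPM in TAK1 knockdown samples. Its groups were also apart, with a log2 fold change of -0.41 (SE 0.074). SPRED1, the family member mutated in Legius syndrome, reached 96.1, 90.4 and 92.7 CPM in control samples and 87.0, 86.9 and 84.6 CPM in TAK1 knockdown samples. The groups did not overlap, but the gap was narrow, with a log2 fold change of -0.11 (SE 0.051).

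**Figure D1:**
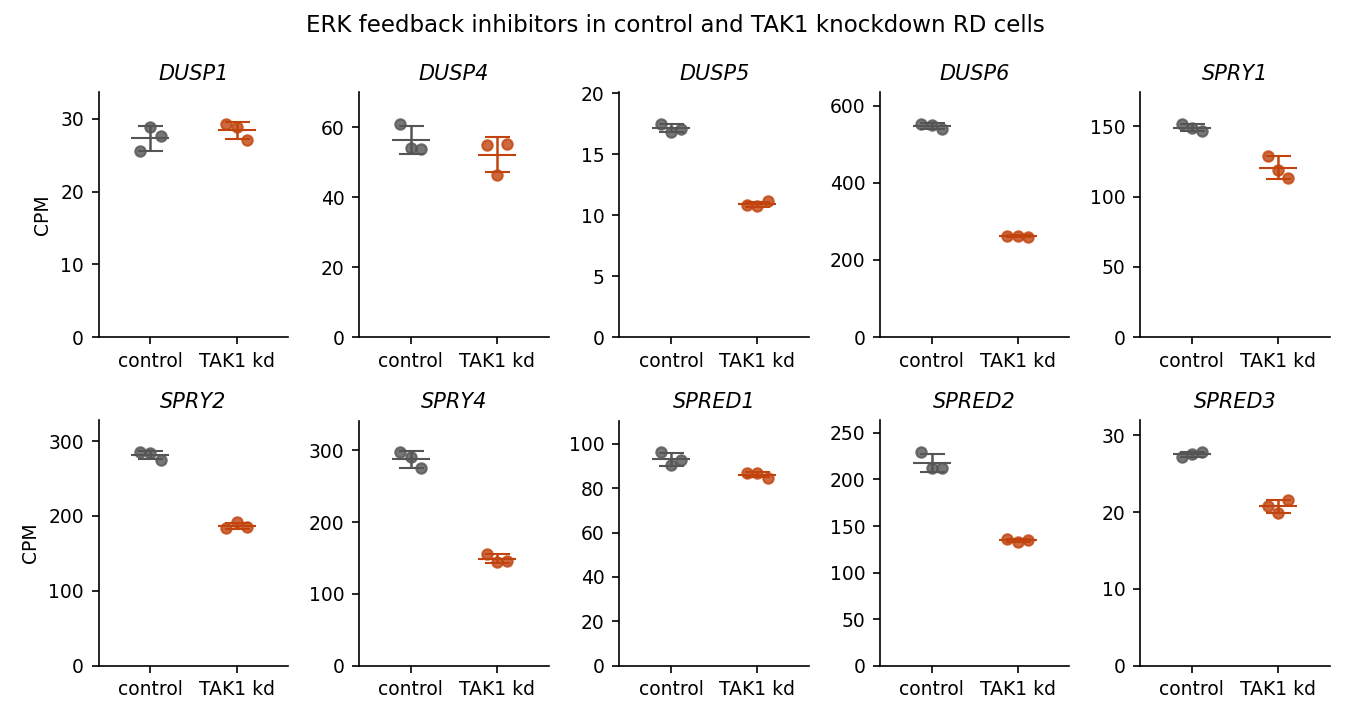
Level of each member in CPM (vertical axis, from 0, scaled per gene) in each control and TAK1 knockdown (TAK1 kd) sample; points are samples, and bars are the mean ± SD (n = 3). DUSP6 and SPRY4 show the widest gaps, and the groups of DUSP1 and DUSP4 overlap.

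Counted together, 7 of the 10 members lay past the same thresholds in the lower direction, and 0 in the higher direction. Across all genes tested, 11.3% were lower, 11.8% higher and 23.1% either by that rule. The groups did not overlap for 8 members, all lower in TAK1 knockdown samples, and among all genes they did not overlap for 22.2% in the lower and 21.6% in the higher direction. At a log2 fold change of at least 0.5, 5 members (DUSP6, SPRY4, SPRED2, DUSP5 and SPRY2) were lower, against 4.27% of all genes. Because the members were proposed with this comparison known, nothing is read from these counts. The median log2 fold change was -0.50 over the members and 0.02 over all genes. The summed level of the members was 1742, 1705 and 1666 CPM in control samples and 1072, 1043 and 1037 CPM in TAK1 knockdown samples.

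**Figure D2:**
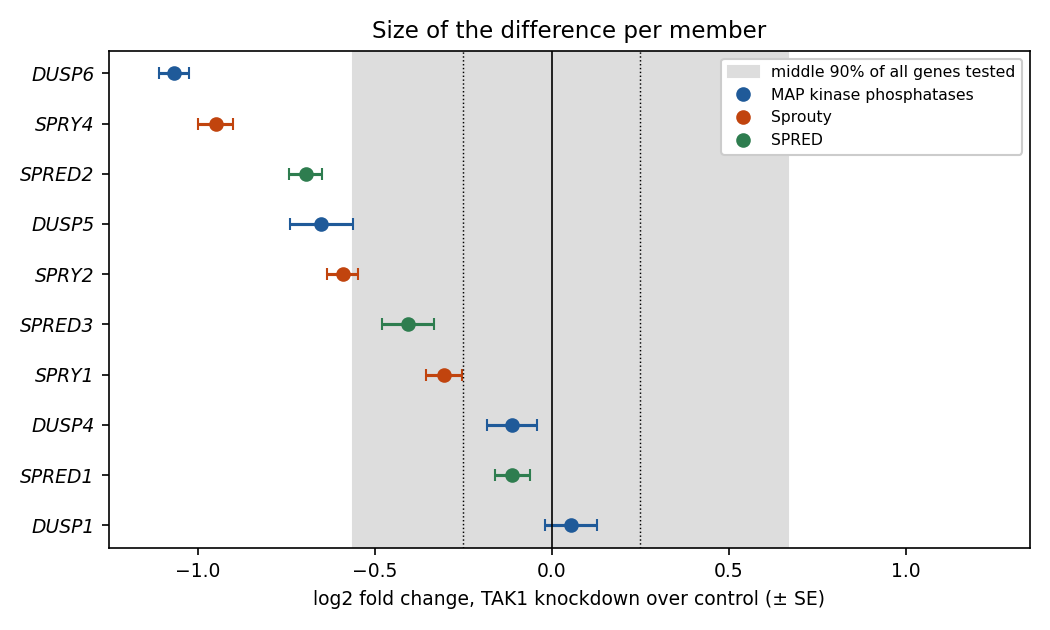
Log2 fold change of each member (horizontal axis; points are estimates and bars are ± SE), with the middle 90% of all genes tested in grey, from -0.56 to 0.67, and dotted lines at the fold threshold of 0.25 in either direction. The 5 members from DUSP6 to SPRY2 lie below the grey band and DUSP1 lies near 0.

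Levels were compared between genes as CPM per kilobase of annotated exon. On this scale DUSP6 had the highest level of the 10 members in control samples (142 ± 1.87, SD, n = 3). SPRY2 (87.5 ± 1.79), SPRY4 (43.9 ± 1.75), SPRED2 (39.6 ± 1.75) and SPRY1 (37.6 ± 0.652) followed. The others were DUSP1 (13.6 ± 0.852), SPRED1 (12 ± 0.373), DUSP4 (7.74 ± 0.547), DUSP5 (6.75 ± 0.126) and SPRED3 (4.69 ± 0.050). The values of neighbours in this order did not overlap across the control samples. The order of SPRY4, SPRED2 and SPRY1 depends on the length used, since by the longest annotated transcript they were at 53.8, 48.2 and 57.1.

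The makeup of each family differed between groups on the same per-length scale. The 4 phosphatases summed to 169.9 ± 2.06 CPM per kilobase in control samples and 93.3 ± 1.08 in TAK1 knockdown samples (SD, n = 3). DUSP6 held 83.5% ± 0.167 of that sum in control samples and 72.6% ± 0.527 in TAK1 knockdown samples, whereas the share of DUSP1 was 8% and 15.1%. The Sprouty genes summed to 169 ± 4.10 and 111 ± 2.77 CPM per kilobase. The share of SPRY4 was 26.0% in control samples and 20.4% in TAK1 knockdown samples, that of SPRY1 was 22.2% and 27.3%, and that of SPRY2 was 51.8% and 52.2%. The SPRED genes summed to 56.3 ± 2.04 and 39.1 ± 0.311 CPM per kilobase, with SPRED2 at 70.3% and 62.5% and SPRED1 at 21.3% and 28.4%.

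**Figure D3:**
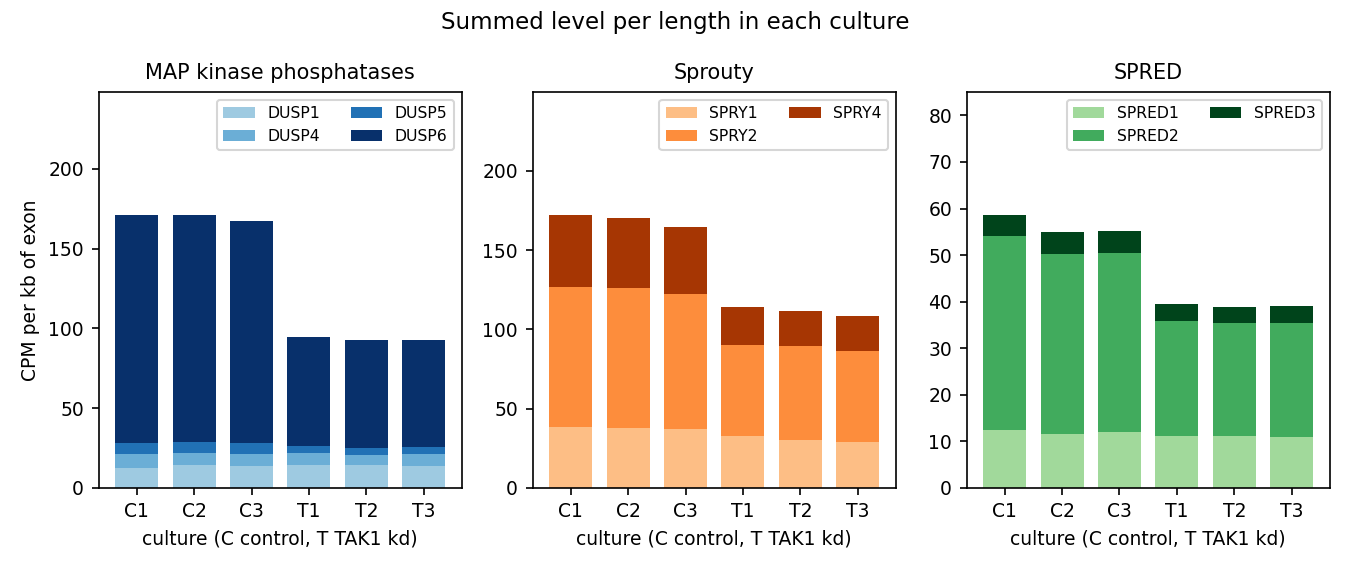
Stacked bars of CPM per kilobase of exon (vertical axis) for the members of each family in control samples 1 to 3 (C) and TAK1 knockdown samples 1 to 3 (T). The summed bars are lower in each TAK1 knockdown sample, and DUSP6, SPRY2 and SPRED2 are the tallest segments of their families in both groups.

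Ratios of raw counts within a library need no scaling between libraries. The ratio of DUSP6 to DUSP4 counts was 9.75 ± 0.595 in control samples and 5.04 ± 0.538 in TAK1 knockdown samples (SD, n = 3). The ratio of SPRED2 to SPRED1 was 2.34 ± 0.049 and 1.56 ± 0.028. The ratio of SPRY4 to SPRY1 was 1.93 ± 0.048 and 1.24 ± 0.043, and that of SPRY4 to SPRY2 was 1.02 ± 0.021 and 0.798 ± 0.046. The pairs were picked after their values were seen, and the groups did not overlap in any of these 4.

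The other genes of the pathway were taken from 8 lists by role, which do not contain the members. These lists were written by hand with earlier results of these data known, so their counts are a description and support nothing about the members. Over all genes tested, 11.3% were lower and 11.8% higher, with a median log2 fold change of 0.02. Of the 109 genes listed, 102 were tested, 32 were lower and 11 were higher by the same rule, and their median log2 fold change was -0.13. In the list of other MAP kinase phosphatases and SPRY3, 2 of 7 genes were lower and 2 were higher. DUSP10, which acts on JNK and p38, was lower (11.1 ± 0.710 CPM in control and 7.63 ± 0.642 CPM in TAK1 knockdown samples; log2 fold change -0.54, adjusted p = 0.000412, edgeR's quasi-likelihood test, Benjamini-Hochberg adjusted). DUSP16, a JNK phosphatase, was higher (11.2 ± 0.825 and 16.3 ± 2.34 CPM; log2 fold change 0.54, adjusted p = 0.000266, edgeR's quasi-likelihood test, Benjamini-Hochberg adjusted). DUSP2 was lower (log2 fold change -0.28) and DUSP8 was higher (0.58, with overlapping groups), and neither call was stable. DUSP2 lost its call without control replicate 1 (-0.20) or 2 (-0.30), or TAK1 knockdown replicate 2 (-0.22) or 3 (-0.28), and with library size alone as the scaling (-0.23). DUSP8 lost its call without control replicate 3 (0.46), or TAK1 knockdown replicate 1 (0.44) or 2 (0.51). DUSP7, a further cytoplasmic ERK phosphatase, named after its values were seen, was at 43.5 ± 2.35 and 43.0 ± 0.614 CPM with overlapping groups, and those of DUSP9, another cytoplasmic ERK phosphatase named after its values were seen, overlapped as well (3.65 ± 0.101 and 4.16 ± 1.04 CPM). In the list of atypical dual-specificity phosphatases, most of which do not act on ERK, 0 of 10 tested genes passed the rule with edgeR, and 0 with DESeq2 or voom; 2 had an unadjusted p under 0.05 with each tool. Without TAK1 knockdown replicate 3, 1 gene of this list was called higher, and with no fold threshold 1 was called lower.

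Other negative regulators of RAS-ERK signaling were lower for 6 and higher for 2 of 19 tested genes. ERRFI1, an inhibitor of EGF receptor family kinases, was lower (163 ± 2.03 and 99.1 ± 4.63 CPM; log2 fold change -0.72, adjusted p = 2.9e-11, edgeR's quasi-likelihood test, Benjamini-Hochberg adjusted). RASA2, a GTPase-activating protein for RAS, was lower (log2 fold change -0.66), as was IL17RD, a membrane inhibitor of FGF signaling also known as SEF (490.5 ± 11.1 and 348 ± 18.6 CPM; log2 fold change -0.49). PPP2CA, a catalytic subunit of protein phosphatase 2A, had a log2 fold change of -0.88, but its exons overlap other annotated genes on the same strand. RASAL2, a RAS GTPase-activating protein named after its values were seen, was higher (log2 fold change 0.45).

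In the RAS-ERK cascade itself, 6 of 21 tested genes were lower and 2 were higher. MAP2K1, which encodes the ERK kinase MEK1, reached 722, 733 and 730 CPM in control samples and 366, 362 and 352 CPM in TAK1 knockdown samples. The groups did not overlap, and the log2 fold change was -1.02 (SE 0.041; adjusted p = 1.94e-15, edgeR's quasi-likelihood test, Benjamini-Hochberg adjusted). Part of its exons overlap, on the opposite strand, an annotated long noncoding RNA (ENSG00000261351, up to 1106 bases of an exon) and SNAPC5 (up to 216 bases). NRAS was at 209 ± 1.14 CPM in control and 113 ± 1.21 CPM in TAK1 knockdown samples (log2 fold change -0.88, adjusted p = 1.78e-13, edgeR's quasi-likelihood test, Benjamini-Hochberg adjusted). PTPN11, the phosphatase SHP2 that promotes RAS activation, had a log2 fold change of -0.48, and the scaffold IQGAP1 of -0.40. The genes that follow were named after their values were seen. MAP2K2, which encodes MEK2, was at 246 ± 15.9 and 263 ± 8.64 CPM with overlapping groups. BRAF was higher (0.30), and so was the exchange factor SOS1 (0.25), which fell short of the fold threshold in 7 of 14 refits. These were DESeq2 (0.247), voom (0.2496), RLE normalization (0.247), the filter of at least 1 count in any sample (0.245), the replicate block (0.24999), and the fits without control replicate 2 (0.247) or TAK1 knockdown replicate 3 (0.174).

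Downstream of ERK, 2 of 7 genes for kinases that ERK activates were lower and 1 was higher. RPS6KA3, which encodes RSK2, was lower (118 ± 1.8 and 68.9 ± 2.21 CPM; log2 fold change -0.78, adjusted p = 1.22e-11, edgeR's quasi-likelihood test, Benjamini-Hochberg adjusted), as was RPS6KA1 (-0.37). MKNK2, a kinase of the translation factor eIF4E, was higher (195 ± 12.5 and 266 ± 17.3 CPM; log2 fold change 0.45). Among ETS and CIC transcription regulators, 5 of 13 were lower and 2 were higher. ETS2 (log2 fold change -0.65), ETV4 (-0.52) and ELK3 (-0.45) were lower. ATXN1, a partner of CIC, was higher (0.51), and so was CIC (0.33), named after its values were seen. Also named after their values were seen, ETS1 (-0.35) and ETV5 (-0.25) were lower. ETV5 fell short of the fold threshold without control replicate 1 (-0.235) or 3 (-0.249), or TAK1 knockdown replicate 1 (-0.238), and with upper-quartile normalization (-0.236), library size alone (-0.205) or a minimum of 10 counts per sample (-0.249).

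Of 19 tested ERK-responsive genes outside the members, 10 were lower and 1 was higher, with a median log2 fold change of -0.41. Among all genes tested these shares were 11.3% and 11.8%, with a median of 0.02. This list too was written with earlier results known, so nothing is read from its count. EGR1, an immediate early transcription factor, reached 71.1, 68.9 and 71.8 CPM in control samples and 30.3, 25.3 and 29.3 CPM in TAK1 knockdown samples. Its groups did not overlap, and the log2 fold change was -1.32 (adjusted p = 1.71e-13, edgeR's quasi-likelihood test, Benjamini-Hochberg adjusted). CCND1, which encodes cyclin D1, had a log2 fold change of -0.93, and the immediate early gene IER2 of -0.82. MYC, the 1 higher gene, named after its values were seen, was at 227 ± 4.59 and 285 ± 6.07 CPM (log2 fold change 0.33). Among JNK and p38 kinases, 1 of 6 tested genes was lower and 1 was higher. The lower count was 0 without control replicate 3. It was 2 without TAK1 knockdown replicate 3, and also with the filter of at least 1 count in any sample. MAPK11 (log2 fold change -0.48) lost its call without control replicate 2 (-0.47) or 3 (-0.42). MAPK12 (0.28), with overlapping groups and exon bases shared with HDAC10, lost its call without TAK1 knockdown replicate 1 (0.23) or 2 (0.21). Exons of ERRFI1, RASAL2, PTPN11, BRAF, ELK3, ETS2, ETV4, CCND1, IER2 and MYC overlap an annotated gene on the opposite strand. The same holds for the muscle markers CHRNA1 and DES. Those of SOS1, ETV5 and ATXN1 overlap one on the same strand. The counts of all these genes may hold shared reads.

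**Figure D4:**
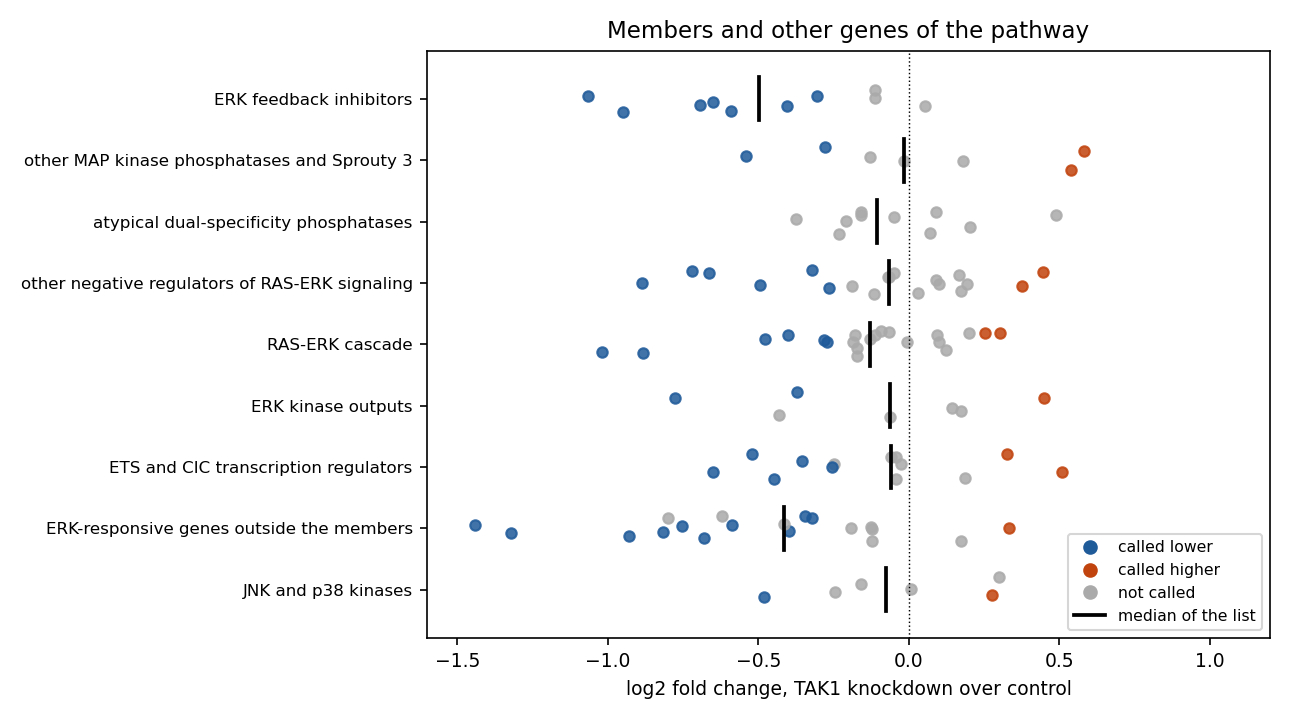
Log2 fold change (horizontal axis) of each tested gene in the members and the 8 pathway lists; points are genes, colored by call, and black bars are list medians. The ERK-responsive genes outside the members have a median of -0.41, the lowest of the 8 pathway lists, and genes called in both directions appear in 7 of the 8.

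Genes with the pattern most like DUSP6 and SPRY4 over the 6 samples were ranked by Pearson's r of log2 CPM among 13476 genes. For DUSP6 these were CRISPLD1 (r = 1.00), MAP2K1 (0.999) and NRAS (0.999), and for SPRY4 they were VMO1, BGN and ARHGEF2 (each 0.999). The samples form 2 groups, so r mainly follows the difference between groups, and 1174 genes had an r over 0.95 with DUSP6.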

How the data were processed

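The authors sequenced RNA of RD cells, called bases with CASAVA and aligned reads to GRCh38 with STAR, per the submitters' processing notes and the study's methods, and deposited raw counts of reads per gene without normalization. The counter, annotation and strand use are not given in the sources used here. Samples were grouped by their labels. Counts were filtered (filterByExpr), scaled by TMM and compared with the quasi-likelihood test of edgeR 4.0.16 in R 4.3.3, with Benjamini-Hochberg adjustment over 15935 genes. Calls needed an adjusted p below 0.05 and a log2 fold change of 0.25 or more in size. SE was computed as the size of the log2 fold change over the root of the F statistic. Alternatives used DESeq2 1.42.0, limma 3.58.1 (voom), other normalizations, filters and fold thresholds, a replicate block and each sample left out. Replicates differed by more than sampling noise (chi-square per degree of freedom from 2.86 to 8.67), and the common biological coefficient of variation was 5.67%. On simulated data with known changes, edgeR, DESeq2 and voom each missed some changed genes with low counts, DESeq2 the most, and the minimum this check had to reach was lowered after its first run. The members and lists were chosen with earlier results of these data known. Genes were named by rule: MAP3K7, the members, up to 4 called genes per list with the largest absolute log2 fold change, no overlap between groups and a mean of at least 1 CPM (every called gene where a list had few), and the 3 genes most like DUSP6 and SPRY4. Gene positions and lengths came from GENCODE 44, promoter windows from RefSeq without the 50 transcribed bases. Proteins were not used here. Some genes are counted in the lists but not reported here by name.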

Additional observations from a re-analysis of the deposited data

How the results depend on the processing

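MAP3K7 kept its direction and its call under all 14 refits, between -1.36 and -1.28 when each sample was left out. The same 14 refits of 60 genes examined singly gave 840 values. Of these, 806 kept direction and stayed called or not called as in the fit reported, 31 lost the call and 3 reversed. Some of these genes, such as DUSP1, had no call in the fit reported and so none to lose. The reversed values were those of DUSP7, close to 0 throughout, at 0.00284 with upper-quartile normalization, 0.0340 with library size alone and 0.0298 without control replicate 1 (-0.0430 to 0.0298 with each sample left out); the cause was not tested. As a description only, the 10 members stayed on the same side of the thresholds in those refits. With each sample left out, 1582 to 1810 genes were higher and 1675 to 1931 lower, 9 to 11 pathway genes were higher and 29 to 33 lower, and 0 members were higher and 7 lower. A fold threshold of 0.5 left 735 higher and 680 lower genes, and 3 higher and 16 lower pathway genes. No fold threshold gave 2569 higher and 2734 lower genes. Library size alone gave 2376 higher and 1404 lower genes, 62.9% of calls higher against 51.0% in the fit reported and 48.3% to 54.9% in the other refits. DESeq2 gave 1685 higher and 1804 lower. Same-number correlations of deviations from group means were 0.037, 0.036 and 0.016, all positive, and those between different numbers ran from -0.052 to 0.019. Control replicate 3 correlated best with TAK1 knockdown replicate 2 (0.019). With 3 samples per group, these values cannot decide whether samples of the same number were paired. With the replicate number as a block, 1942 genes were higher and 1848 lower. DUSP8 had low counts (94, 118 and 83 in control samples and 171, 187 and 115 in TAK1 knockdown samples), and the cause of its spread was not tested.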
